A study of Homo sapiens with 20 samples.

Results

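The 31 genes described here encode constitutive subunits of the proteasome. They are PSMA1 to PSMA7, PSMB1 to PSMB7, PSMC1 to PSMC6, PSMD1 to PSMD4, PSMD6 to PSMD8 and PSMD11 to PSMD14. The list follows gene identity and not a measured value, but it was chosen with earlier results of these data known. All 31 were found among the 19029 Ensembl gene IDs of each count table. The study profiled initiation complexes in HEK 293T cells, an immortal line derived from human embryonic kidney, with selective translation complex profiling. In this assay small ribosomal subunit complexes are fixed on mRNA, digested with RNase, pulled down through a chosen initiation factor and read as RNA footprints. Cells received DMSO, the solvent, or 5 µM i14G1-12 for 1 h, and the title of the series names an inhibitor of eIF1-eIF4G1. Complexes were pulled down through HA (for HA-tagged eIF1, called eIF1 here), eIF4G1, HA-eIF2a (called eIF2a) or eIF3.

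That gave 8 groups and 20 libraries, with 3 DMSO and 3 i14G1-12 libraries each for eIF1 and eIF4G1 and 2 and 2 each for eIF2a and eIF3. All groups are 1 cell line whose genotype the labels give as WT, and the labels do not say how the HA-tagged factors were introduced. The labels do not state that replicates came from separate cultures. The spread behind the p-values may then be only technical. No input RNA was analysed here. Each value is relative to the other RNA pulled down with it, and a change in mRNA amount and a change in its binding cannot be told apart. The identity of the cells could not be checked against marker genes, because the IDs of the files could not be matched to symbols. The symbols of the 31 genes are those of the list that defined them. Gene positions below are those of RefSeq for that symbol on GRCh38.p14.

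The proteasome degrades proteins tagged with ubiquitin. Its core particle is a barrel of stacked rings: the outer alpha rings (PSMA genes) gate the entrance, and the inner beta rings (PSMB genes) hold the proteases PSMB5, PSMB6 and PSMB7, with chymotrypsin-like, caspase-like and trypsin-like activity. The regulatory particle caps the barrel. Its base carries a ring of ATPases (PSMC genes) that unfold substrates, along with the scaffold subunits PSMD1 and PSMD2 and the ubiquitin receptor PSMD4. Its lid (the other PSMD genes) holds PSMD14, the enzyme that removes ubiquitin. Subunits are needed in fixed ratios, and cells make them at high levels.

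Some mRNAs of this set are known for very short 5′ leaders. The translation initiator of short 5′ UTR (TISU) is an element at the start codon of such mRNAs, known to direct initiation with little scanning. The starts of the genes are therefore shown first. RefSeq windows (GRCh38.p14) were found for 26 of the 31 symbols, 32 windows in all because some genes have several start sites, and PSMA7, PSMB1, PSMB6, PSMB7 and PSMD4 had none. In the first 50 transcribed bases the first ATG lay within 30 bases of the start site in 9 of the 32 windows, which belong to 8 genes, against 28.2% of 35116 RefSeq promoter windows. Whether that ATG is the start codon was not checked, and the start site used in these cells is not known from the counts. The 9 stretches are shown because they are the candidates for a very short leader. Each is 30 bases long, written 5′ to 3′, with the first ATG in capitals.
PSMA2 (chr7:42932141-42932170, minus strand): cttcgggtaaagATGgcggagcgcgggtac
PSMA4 (chr15:78540419-78540448, plus strand): gcggttctgcgcATGcgcgggggccatatt
PSMB4 (chr1:151399576-151399605, plus strand): accgtgactaagATGgaagcgtttttgggg
PSMB5 (chr14:23035191-23035220, minus strand): ATGgccgacctcacttcccttacgcaacat
PSMB5 (chr14:23034864-23034893, minus strand): cccacactagacATGgcgcttgccagcgtg
PSMC5 (chr17:63827734-63827763, plus strand): gtgagggaagcgATGggcgcgggaatggcc
PSMC6 (chr14:52707200-52707229, plus strand): ATGagagacggcttctcatcatggcggacc
PSMD2 (chr3:184299255-184299284, plus strand): gtggcggcggagATGgaggagggaggccgg
PSMD11 (chr17:32444512-32444541, plus strand): gagagcggtaagATGgcggcggcggcggtg

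PSMD11, a lid scaffold subunit, had 14 bases before its first ATG. It was the only window in which ATGGCGG, letters of the TISU core, had AAN before it and C after it, an arrangement that 0.738% of all windows hold on the sense strand and 0.122% on the antisense strand. ATGGCGG with AAN before it, contained in the first motif, was also in the window of the alpha ring gene PSMA2, with 16 bases before the ATG (1.05% of all windows sense, 0.179% antisense). ATGGCGG alone, contained in both, was further found at base 21 of the window of the ATPase gene PSMC6 (2.07% sense, 0.57% antisense). None of the 3 motifs was on the antisense strand of a window of these genes. PSMB4, a beta ring subunit, had 15 bases before its first ATG, and PSMB5 and PSMC6 each had a window that opens with ATG itself. These matches describe letters in a window and show nothing about how a start site is used.

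Levels between genes are given as CPM (the depth-normalised read count) per kb of counted sequence, scaled by the trimmed mean of M-values (TMM) over all 20 libraries. On this scale the median over the 31 genes was 116 and that over the 9426 genes tested was 13.2, and the means of all 31 over the 20 libraries lay above the latter. By group, PSMD11 was below it in i14G1-12, at 10.1 in eIF4G1 and 10.7 in eIF3 complexes. The counted sequences of the set were shorter than those of all genes tested (medians 1540 and 3548.5 bases). Division by length therefore raises the set against all genes. By the mean over the 20 libraries the beta ring gene PSMB1 was highest at 384 ± 118 CPM per kb (from 159 to 569). PSMB4 followed at 339 ± 108 (from 133 to 496). Each SD is over 20 libraries and so includes differences between groups. The ranges of these neighbours overlapped, and their difference was not tested. Their order depended on the group, since PSMB4 was above PSMB1 in the i14G1-12 groups of eIF1 (455 against 431 CPM per kb) and eIF4G1 (379 against 344) and in the DMSO group of eIF2a (372 against 312). PSMB3, at 257 ± 111, PSMB5, at 246 ± 75.7, and PSMA3, at 239 ± 86.9, came next and overlapped widely. The lowest was PSMD11, at 14.8 ± 5.75 CPM per kb (from 8.28 to 29.6), below PSMC1, the ATPase Rpt2, at 24.9 ± 9.33 (from 12.1 to 45.8), though PSMC1 was the lower in DMSO in eIF2a complexes (15.7 against 21.7) and in eIF3 complexes (15.1 against 16.1). The counted sequences ran from 762 to 4426 bases, and the 5 lowest levels (PSMD11, PSMC1, PSMD12, PSMD1 and PSMD2) belonged to sequences of 2913 to 4390 bases. Without division by length PSMA4 had the highest mean, at 540 CPM over the 20 libraries, and its sequence of 4378 bases put it at 123 ± 38.0 CPM per kb. The order of the 31 levels in DMSO was alike in the immunoprecipitations, with Spearman's rho of 0.918 to 0.957 over 31 genes for the 6 pairs of groups. That is a description across genes, which are not independent replicates.

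**Figure D1:**
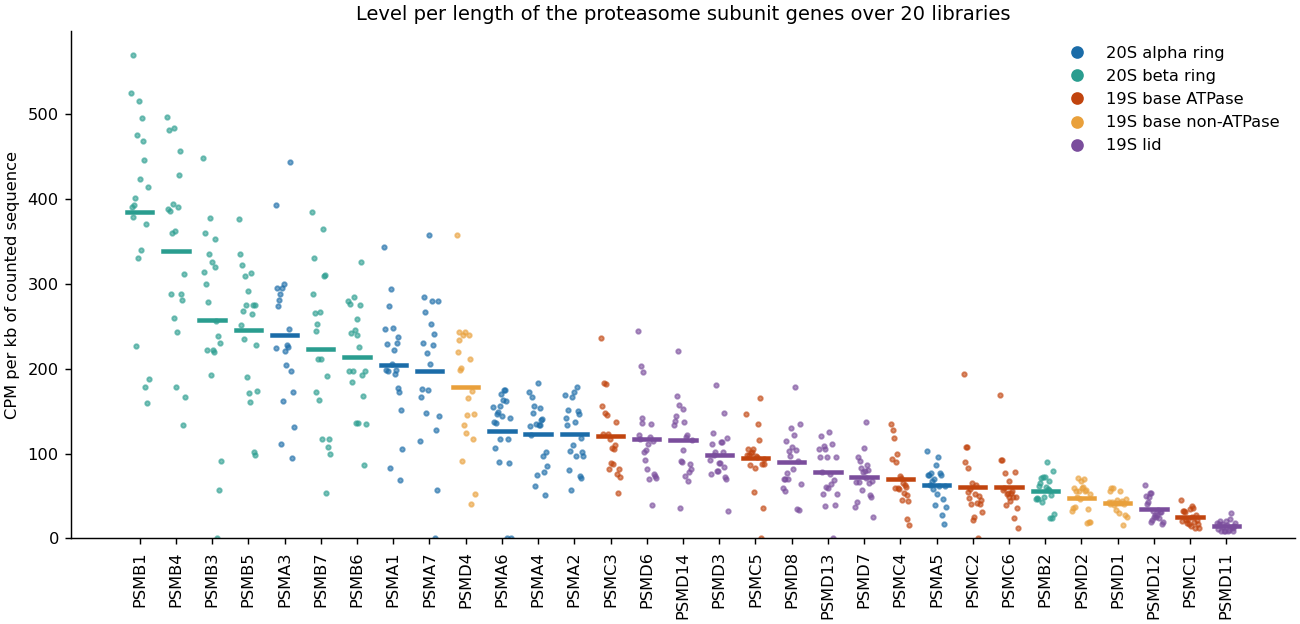
Level of each proteasome subunit gene, as CPM per kb of counted sequence (linear vertical axis), in each of the 20 libraries (small points) with the mean over the libraries (bars), ordered by mean and coloured by subunit class. Beta ring genes take the first 4 places, with PSMB1 at 384 CPM per kb, and PSMD11 is last at 14.8.

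Depth limited what the smaller libraries could show. Totals ran from 10033 to 1161512 counts per library. In DMSO replicate 2 of eIF2a, the smallest, all 31 genes had fewer than 10 counts and 6 had 0, where a count of 0 allows up to 299 CPM (3 counts of the total, without TMM scaling). In DMSO replicate 2 of eIF3, with 59179 counts, 23 of the 31 were under 10 counts and PSMA6 had 0, which allows up to 50.7 CPM. In the other 18 libraries no gene of the set was at 0. The libraries eIF2a DMSO 2 and eIF3 number 2 of both treatments were set apart and left out together in an alternative to the fit of all 20 libraries. No depth threshold defined that choice. Replicate 2 of eIF3 in i14G1-12 had 239495 counts and 1 gene of the set under 10, while i14G1-12 replicate 1 of eIF2a, which was kept, had 152354. Many results that turn or move without 1 library, but not all, are given with the value without it.

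The first comparison asked whether the share of counts that went to the proteasome genes changed with i14G1-12. The 31 genes together took between 0.311% and 0.775% of the counts of a library. In eIF1 complexes the DMSO libraries were at 0.557%, 0.583% and 0.607% and the i14G1-12 libraries at 0.527%, 0.555% and 0.570%. The means were 0.582% ± 0.0250 and 0.551% ± 0.0219 (SD, n = 3 each), with overlapping ranges. In eIF4G1 complexes DMSO replicate 1 was high at 0.775%, against 0.604% and 0.591% in the other DMSO libraries, and the i14G1-12 libraries had 0.474%, 0.627% and 0.480%. The means were 0.657% ± 0.103 and 0.527% ± 0.0863 (SD, n = 3 each), and the second i14G1-12 library lay inside the range of DMSO.

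In eIF2a complexes the share was 0.693% and 0.658% in DMSO and 0.703% and 0.695% in i14G1-12, with means of 0.675% ± 0.0247 and 0.699% ± 0.00573 (SD, n = 2 each). The second DMSO value rests on 66 counts of 10033, with a 95% Wilson interval of 0.517% to 0.836% that covers counting error only, so the difference was not detectable at this depth although the groups did not overlap. In eIF3 complexes the share was 0.587% and 0.402% in DMSO and 0.507% and 0.311% in i14G1-12, with means of 0.495% ± 0.131 and 0.409% ± 0.139 (SD, n = 2 each). Both libraries numbered 2 were low there, and the groups overlapped. Within each replicate number the i14G1-12 library was below the DMSO library, and same-numbered eIF3 libraries deviated together (correlation 0.56). With 2 libraries per group this correlation cannot show whether they were paired. No paired test was made on the shares. The log2 ratio of the mean shares was -0.08 for eIF1, -0.32 for eIF4G1, 0.05 for eIF2a and -0.27 for eIF3. The eIF3 ratio was 0.0355 without i14G1-12 replicate 2, 0.0246 without DMSO replicate 1, -0.67 without i14G1-12 replicate 1 and -0.52 without DMSO replicate 2. The eIF4G1 ratio was -0.18 without DMSO replicate 1 and -0.16 with TMM-scaled totals. For eIF1 the sign depended on the denominator, since with TMM-scaled totals the ratio was 0.0747.

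By class, shares of the total count did not overlap between groups of 3 libraries for the alpha ring in eIF4G1 complexes and for the lid in eIF1 complexes. The alpha ring share in eIF4G1 complexes was 0.218% ± 0.0333 in DMSO, with libraries from 0.199% to 0.256%, and 0.141% ± 0.0543 in i14G1-12, from 0.0887% to 0.197% (SD, n = 3 each). The lid share was 0.117% ± 0.00851 in DMSO and 0.0942% ± 0.00981 in i14G1-12 in eIF1 complexes (SD, n = 3 each). There the 3 i14G1-12 libraries, at most 0.101%, all lay below the DMSO libraries, at least 0.107%. The Wilson intervals of the libraries with these values also overlapped (0.0925% to 0.110% and 0.101% to 0.113%). The ATPases ran the other way in eIF1 complexes, at 0.0855% ± 0.00698 and 0.0995% ± 0.0110 (SD, n = 3 each), and overlapped. These class shares are descriptions, since the genes were grouped with earlier results of these data known, and no test was made on them.

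**Figure D2:**
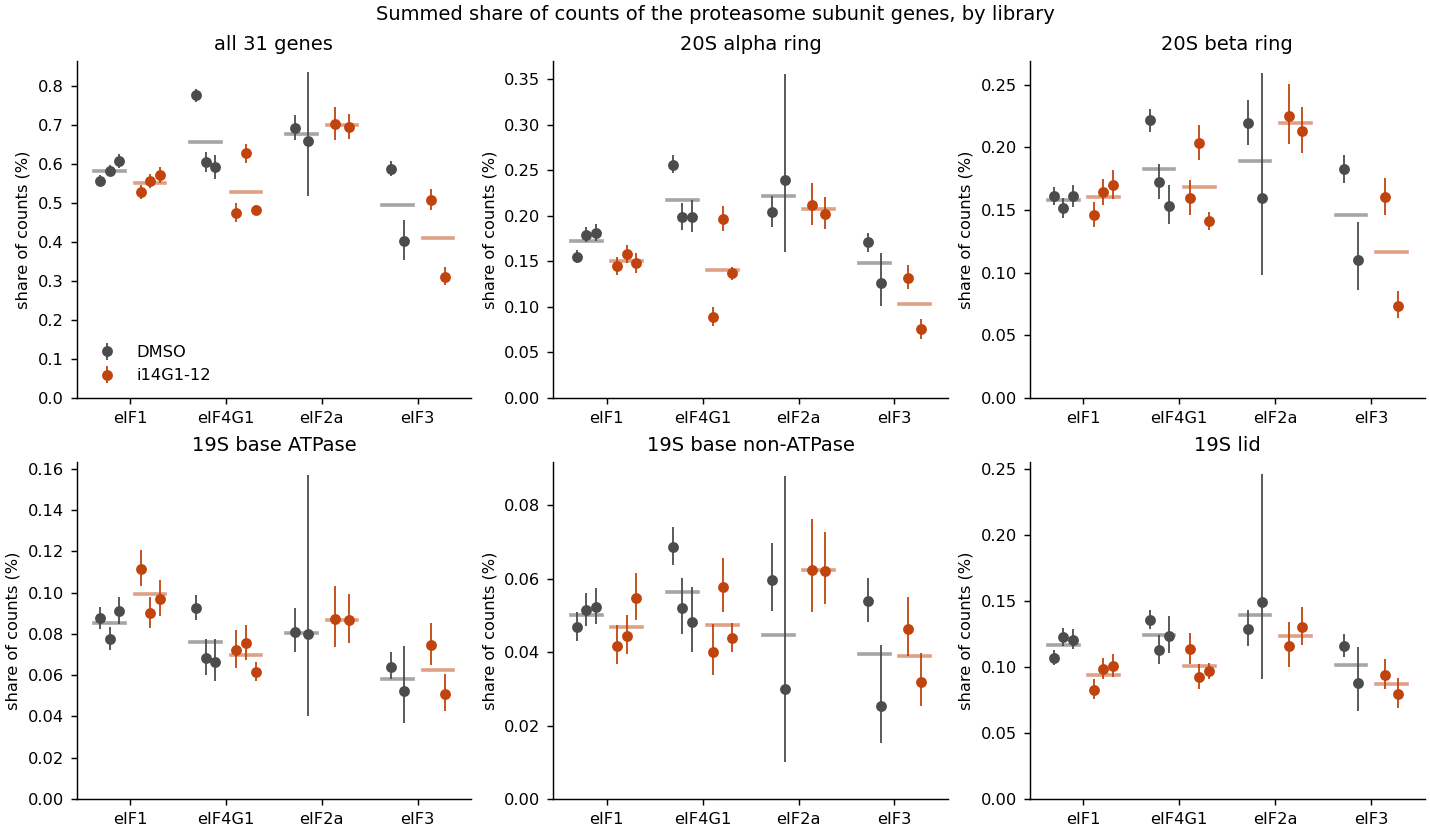
Summed share of counts (percent, axes from 0) of all 31 genes and of each subunit class in every library, for DMSO and i14G1-12 in the 4 immunoprecipitations; vertical lines are 95% Wilson intervals and horizontal bars are group means. The alpha ring in eIF4G1 complexes is at 0.199% to 0.256% in DMSO and at 0.0887% to 0.197% in i14G1-12. The intervals of DMSO replicate 2 and i14G1-12 replicate 2 overlap there. The interval is widest for the smallest library, DMSO replicate 2 of eIF2a.

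No single gene of the set changed with i14G1-12 in any immunoprecipitation at an edgeR adjusted p of 0.05. All 31 passed the filter on low counts and were tested in each. In eIF1 complexes 0 of 31 were called (0.456% of the 8338 genes tested were), with 6 at an unadjusted p under 0.05 (12.4% of all genes), and DESeq2 also called 0. In eIF4G1 complexes 0 of 31 were called (0.347% of 7203 genes), with 2 at an unadjusted p under 0.05 (8.65%). DESeq2 called 0 there too and gave no adjusted p for 18 of them. In eIF2a complexes edgeR called 0 (0% of 4719 genes), with 1 at an unadjusted p under 0.05 (1.84%). In eIF3 complexes it called 0 (0.0159% of 6300 genes), with 0 at an unadjusted p under 0.05 (1.75%), and in both DESeq2 called 0. Groups did not overlap for 8, 1, 14 and 8 of the 31 genes in eIF1, eIF4G1, eIF2a and eIF3 complexes, where 18.3%, 14.3%, 29.8% and 26% of all genes tested did not.

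The directions differed between immunoprecipitations. In eIF1 complexes 17 of 31 genes had higher fitted values in i14G1-12 and 14 lower, with a median log2 fold change of 0.07 (0.00 over all genes tested). In eIF4G1 complexes 11 were higher and 20 lower, with a median of -0.16 (-0.01 over all genes). In eIF2a complexes 18 were higher and 13 lower (median 0.12, against 0.06), and in eIF3 complexes 9 were higher and 22 lower (median -0.24, against 0.02). The sign of the median did not hold in eIF1 complexes with scaling by total counts, at -0.10, where the median of all genes moved to -0.13. It also changed there without i14G1-12 replicate a, at -0.10, and in eIF3 complexes without DMSO replicate 1, at 0.33, or without i14G1-12 replicate 2, at 0.16. In eIF4G1 complexes the median was -0.05 without DMSO replicate 1 and -0.28 without i14G1-12 replicate 2. Without DMSO replicate 2 the median was 0.06 in eIF2a complexes and -0.45 in eIF3 complexes. In eIF2a complexes it was 1.04 without DMSO replicate 1, where the median of all genes moved to 0.58. Fitted values and plain means of CPM pointed opposite ways in eIF2a complexes for PSMB2, PSMB4, PSMC5, PSMD3, PSMD6 and PSMD13, and in eIF3 complexes for PSMD7.

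**Figure D3:**
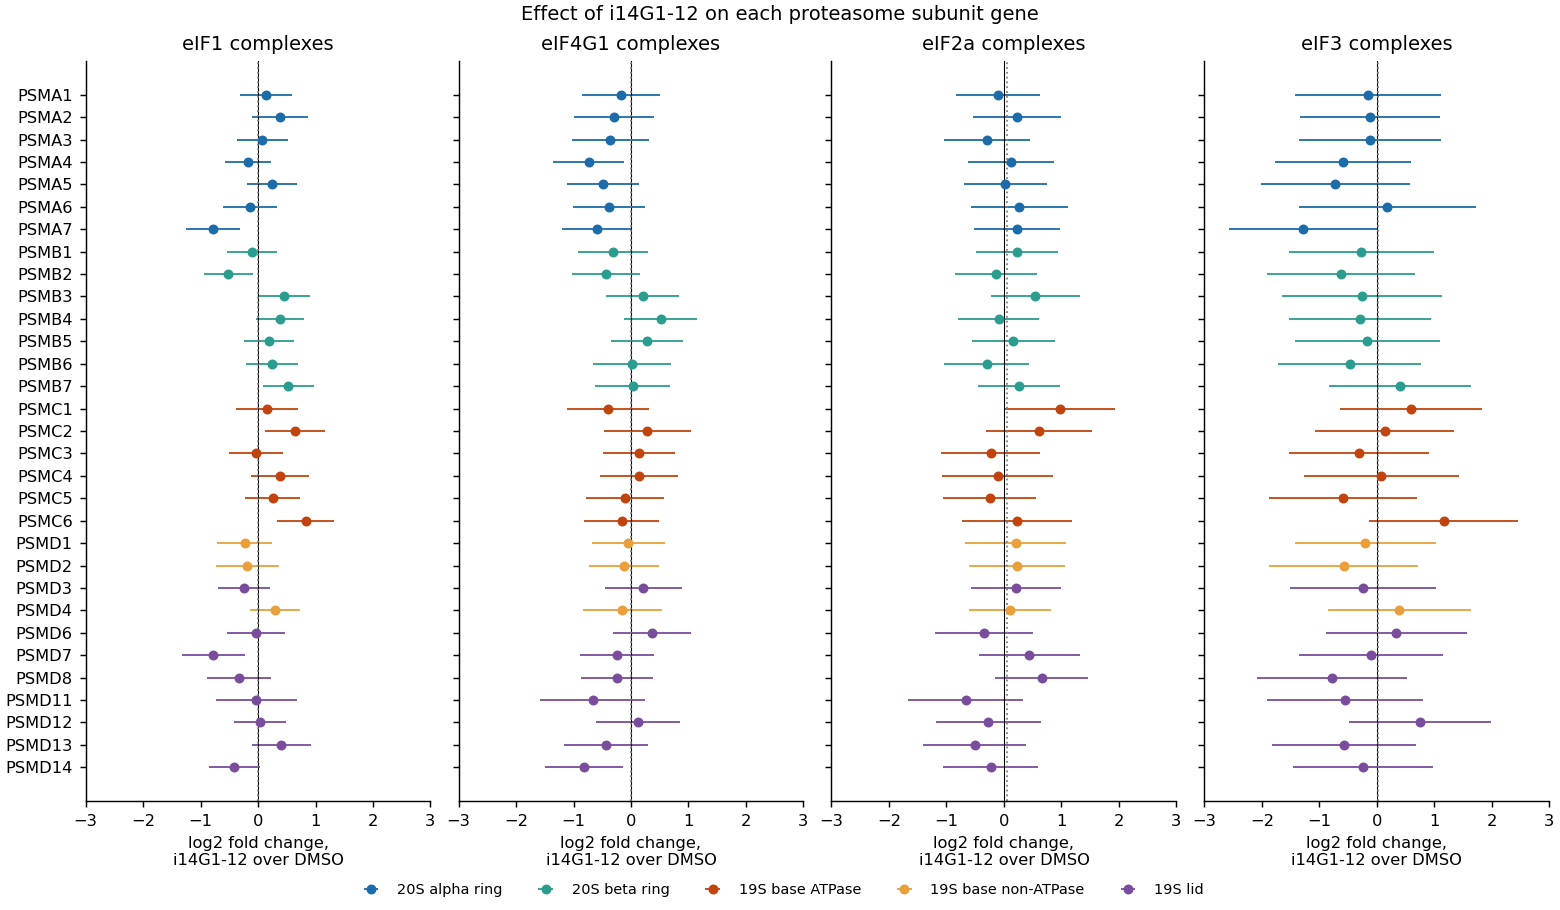
Fitted log2 fold change of each proteasome subunit gene, i14G1-12 over DMSO, in the 4 immunoprecipitations (points; lines are 95% intervals; the dotted line is the median of all genes tested), coloured by subunit class. Values run from -1.28 (PSMA7 in eIF3 complexes) to 1.17 (PSMC6 in eIF3 complexes), and the lines are widest for eIF3.

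The alpha ring, which forms the gate of the core particle, was lower in i14G1-12 in 7 of 7 genes in eIF4G1 complexes, with a median log2 fold change of -0.39 (-0.01 over all genes tested). None of the 7 passed the test. Without i14G1-12 replicate 1 the median was -0.24 and 6 of 7 were lower, and without i14G1-12 replicate 2 it was -0.70. In eIF1 complexes 4 of the 7 were higher and 3 lower, with a median of 0.07 that became -0.10 with scaling by total counts and -0.12 without i14G1-12 replicate a. In eIF3 complexes 6 of 7 were lower, with a median of -0.16. That direction rested on 1 library, since without i14G1-12 replicate 2 only 3 of 7 were lower (median 0.23), while without i14G1-12 replicate 1 the median was -0.91.

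PSMA4 (ENSG00000041357, chr15:78540405-78552417), the alpha ring gene with the most counts, had 848, 636 and 617 CPM in the eIF4G1 DMSO libraries and 288, 624 and 353 in the i14G1-12 libraries. The second i14G1-12 library fell within the range of DMSO and the other 2 lay well below it. The log2 fold change was -0.74 (SE 0.31, edgeR adjusted p = 0.485, n = 3 each). In eIF1 complexes its values were 577, 541 and 561 CPM in DMSO and 587, 471 and 433 in i14G1-12, which overlap.

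PSMA7 (ENSG00000101182, chr20:62136733-62143394) had the lowest log2 fold changes of the alpha ring in 2 of the 4 immunoprecipitations. In eIF1 complexes it was at 175, 228 and 210.5 CPM in DMSO and 86.2, 131 and 138 CPM in i14G1-12, with no overlap (log2 fold change -0.78, SE 0.24, edgeR adjusted p = 0.140, n = 3 each). In eIF3 complexes the DMSO libraries had 323 and 175 CPM and the i14G1-12 libraries 147 and 64.9, again without overlap, and its log2 fold change of -1.28 (SE 0.65) did not pass (edgeR adjusted p = 1.00, n = 2 each). Without DMSO replicate 2 or without i14G1-12 replicate 2 it was -1.60 or -0.80. With a replicate block the edgeR adjusted p of PSMA7 in eIF3 complexes was 0.0885, the smallest of the set there. In eIF4G1 complexes it was -0.59, and in eIF2a complexes 0.23, where DMSO replicate 2 had 0 counts. PSMA5 was among the 3 lowest in eIF3 complexes at -0.72, from 283 and 175 CPM in DMSO and 212 and 74.2 in i14G1-12, which overlap. The remaining alpha genes, PSMA1, PSMA2, PSMA3 and PSMA6, had log2 fold changes from -0.39 to 0.38 over the 4 immunoprecipitations, the lowest for PSMA6 in eIF4G1 complexes and the highest for PSMA2 in eIF1 complexes.

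The beta ring, which holds the proteolytic sites, showed no single direction. In eIF1 complexes and in eIF4G1 complexes 5 of 7 genes were higher in i14G1-12 (medians 0.25 and 0.03), in eIF2a complexes 4 of 7 were, and in eIF3 complexes 6 of 7 were lower (median -0.27). The eIF3 direction turned with single libraries: 1 of 7 was lower without DMSO replicate 1 (median 0.33) and 2 of 7 without i14G1-12 replicate 2 (0.23), against a median of -1.03 without i14G1-12 replicate 1. In eIF4G1 complexes the median was -0.14 with scaling by total counts, -0.20 without DMSO replicate 3 and 0.31 without DMSO replicate 1. PSMB5, the chymotrypsin-like protease, had 266, 234 and 201 CPM in eIF1 DMSO libraries and 305, 285 and 214 in i14G1-12, with overlap. In eIF4G1 complexes it had 322, 194 and 176 CPM in DMSO and 345, 304 and 214 in i14G1-12, and its log2 fold changes over the 4 immunoprecipitations ran from -0.17 to 0.28. The 95% interval in eIF4G1 complexes was -0.35 to 0.90 and included 0.

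PSMB6, the caspase-like protease, had 158, 127 and 133 CPM in eIF1 DMSO libraries and 179, 132 and 186 in i14G1-12. In eIF4G1 complexes it was at 225, 214 and 118 CPM and 250.1, 214 and 122 CPM, with groups that overlapped in both. Its fold changes were 0.25, 0.02, -0.30 and -0.47 on the log2 scale in eIF1, eIF4G1, eIF2a and eIF3 complexes.

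PSMB7 (ENSG00000136930, chr9:124353465-124415442), the trypsin-like protease, was 1 of 2 genes with a positive log2 fold change in all 4 immunoprecipitations. In eIF1 complexes it had 207, 141 and 198 CPM in DMSO and 293, 231 and 265 in i14G1-12, with no overlap (log2 fold change 0.53, SE 0.23, edgeR adjusted p = 0.318, n = 3 each). In the others the values were 0.03 (eIF4G1), 0.26 (eIF2a) and 0.41 (eIF3), and the eIF4G1 and eIF3 values changed sign in 4 of 13 and 1 of 11 alternative settings.

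PSMB2, a beta ring subunit without a protease site of its own, had a negative fitted log2 fold change in all 4. In eIF1 complexes its libraries had 218, 241 and 259 CPM in DMSO and 161, 171 and 168 in i14G1-12, a tight separation. The log2 fold change there was -0.52 (SE 0.22) and did not pass (edgeR adjusted p = 0.304, n = 3 each). The log2 fold changes were -0.43 in eIF4G1, -0.14 in eIF2a and -0.62 in eIF3 complexes, and the sign changed in 5 of 11 alternative settings in eIF2a and 1 of 11 in eIF3 complexes. The plain means in eIF2a complexes, 281 CPM in DMSO and 331 in i14G1-12, ran against the fitted value. PSMB4, whose first ATG lies 15 bases from its start site, was the highest of the 31 in eIF4G1 complexes, at 352, 177 and 235 CPM in DMSO and 387, 469.7 and 258 in i14G1-12. The groups overlapped, and the log2 fold change of 0.51 (SE 0.32) did not pass (edgeR adjusted p = 0.730, n = 3 each). PSMB1, the gene with the highest mean level per length, had 485, 408 and 319 CPM in the eIF4G1 DMSO libraries and 216, 447 and 319 in i14G1-12. In eIF1 complexes PSMB1 had 402, 293 and 293 CPM and 363, 284 and 275 CPM, and both pairs of groups overlapped. PSMB3 was at 0.46 in eIF1 complexes and 0.54 in eIF2a complexes, where DMSO replicate 2 had 0 counts.

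Among the ATPases of the base 5 of 6 were higher in i14G1-12 in eIF1 complexes, with a median log2 fold change of 0.32 (0.00 over all genes tested), and PSMC3, at -0.03, was the exception. In eIF4G1 complexes 3 of 6 were higher (median 0.01), in eIF2a complexes 3 of 6 (median 0.05) and in eIF3 complexes 4 of 6 (median 0.10). With scaling by total counts 4 of 6 were higher in eIF1 complexes, and 5 of 6 were lower in eIF4G1 complexes (median -0.16). The eIF1 median was 0.19, with 2 of 6 lower, without i14G1-12 replicate a. It was 0.47, with 0 of 6 lower, without i14G1-12 replicate b. In eIF3 complexes 4 of 6 were lower without DMSO replicate 2 (median -0.14) or without i14G1-12 replicate 1 (-0.29). The eIF2a median was 1.09 without DMSO replicate 1 (0.58 over all genes) and -0.28, over 3 genes, with a minimum count of 30. None passed the test.

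PSMC6 (ENSG00000100519, chr14:52707200-52728590), the ATPase Rpt4, had the smallest p of the 31 genes in eIF1 complexes. It was at 98.2, 106 and 136 CPM in DMSO and 284, 163 and 162 CPM in i14G1-12, and the groups did not overlap. Replicate a of i14G1-12 was far above the other 2. The log2 fold change was 0.83 (SE 0.25, unadjusted p = 0.00307, edgeR adjusted p = 0.137, n = 3 each), and 0.52 without that library. DESeq2 came closer to the threshold, with an adjusted p of 0.0552. In eIF3 complexes PSMC6 was also the highest of the set, from 91.9 and 35.1 CPM in DMSO to 203 and 125 in i14G1-12 without overlap (log2 fold change 1.17, SE 0.66, edgeR adjusted p = 1.00, n = 2 each). The lower DMSO value there rests on 2 counts, and without that library the log2 fold change was 0.84. In eIF4G1 complexes its values were 156, 115 and 101 CPM in DMSO and 90.9, 121 and 125 in i14G1-12, which overlap, with a log2 fold change of -0.16.

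PSMC2 (ENSG00000161057, chr7:103347524-103369395), the ATPase Rpt1, was positive in all 4 immunoprecipitations, though its eIF3 value of 0.13 changed sign in 2 of 11 alternative settings. In eIF1 complexes it was at 231, 123 and 183 CPM in DMSO and 408, 200.0 and 239 CPM in i14G1-12. Replicate a was again the highest and the groups overlapped (log2 fold change 0.64, SE 0.27, edgeR adjusted p = 0.295, n = 3 each), with 0.29 without that library. In eIF4G1 complexes it had 189, 64.7 and 71.4 CPM in DMSO and 136, 166 and 119 in i14G1-12, a log2 fold change of 0.29. In eIF2a complexes the DMSO libraries had 147 and 0 CPM, the second from a count of 0, and the i14G1-12 libraries 185 and 221, with a fitted value of 0.61. Since a count of 0 allows 299 CPM in that library, this separation is not resolved.

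PSMC1 (ENSG00000100764, chr14:90256553-90275429), the ATPase that helps open the gate, had the smallest p in eIF2a complexes. Its DMSO libraries had 109 and 86.7 CPM, the second from 1 count, and its i14G1-12 libraries 219 and 205 (log2 fold change 0.97, SE 0.49, unadjusted p = 0.0479, edgeR adjusted p = 1.00, n = 2 each), with 0.93 without DMSO replicate 2. In eIF3 complexes it was at 91.9 and 70.1 CPM and 143 and 111 CPM, also without overlap, with a log2 fold change of 0.59. In eIF4G1 complexes the sign was the other one, at -0.40. The remaining ATPases PSMC3, PSMC4 and PSMC5 lay between -0.59 (PSMC5 in eIF3 complexes) and 0.38 (PSMC4 in eIF1 complexes).

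**Figure D4:**
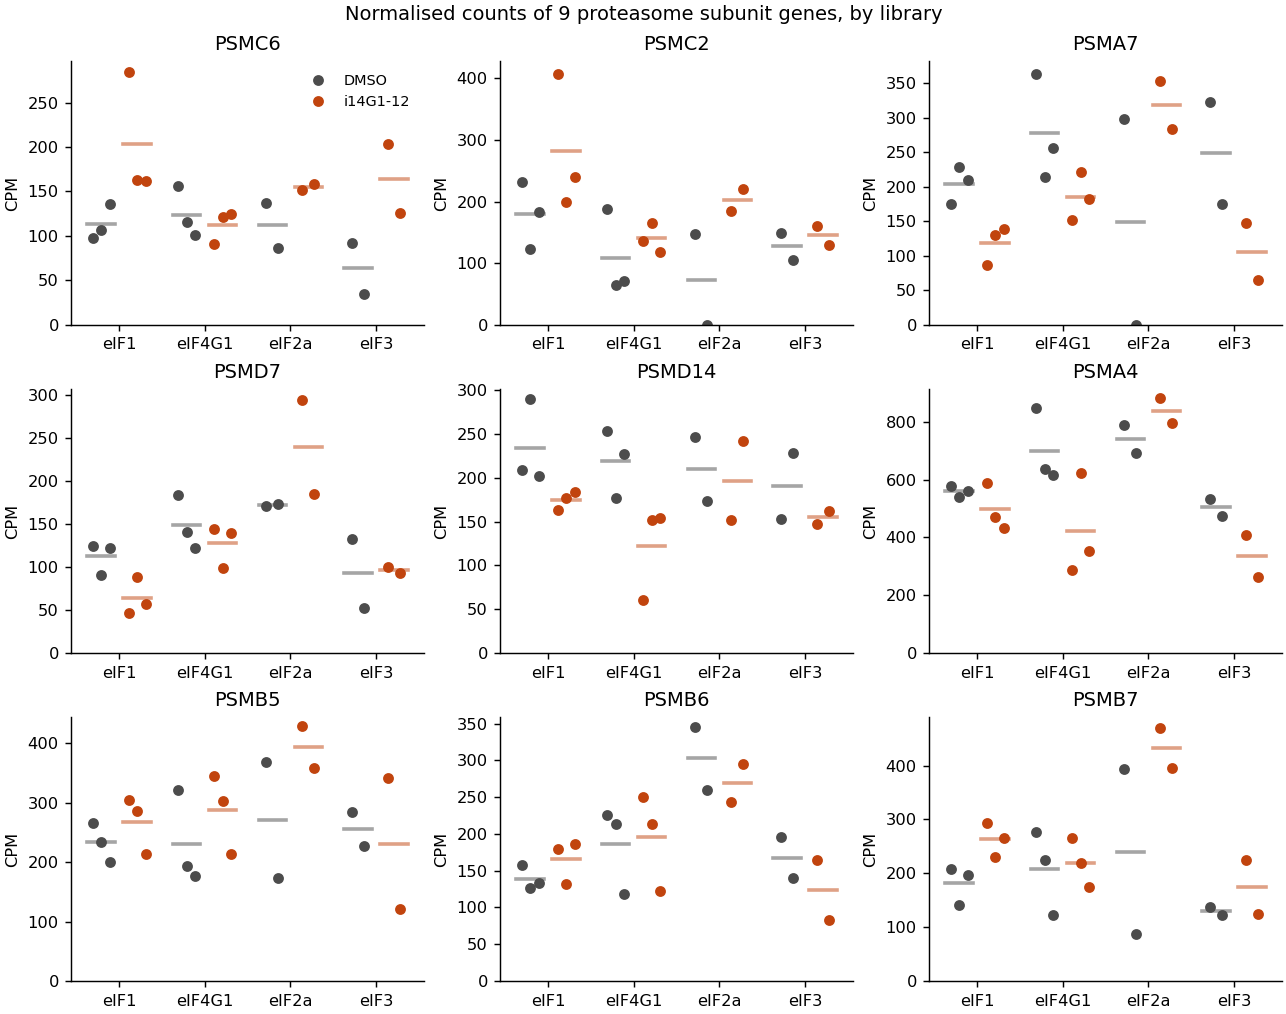
Normalised counts (CPM scaled within each immunoprecipitation, axes from 0) of 9 proteasome subunit genes in every library, with bars for group means. In eIF1 complexes PSMC6 is at 98.2 to 136 CPM in DMSO and 162 to 284 in i14G1-12, while the groups of PSMB5 and PSMB6 overlap in all 4 immunoprecipitations.

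None of the non-ATPase subunits of the base passed the test. PSMD1 and PSMD2, the scaffolds that dock ubiquitin shuttles, ran from -0.58 (PSMD2 in eIF3 complexes) to 0.23 (PSMD2 in eIF2a complexes). PSMD4, a ubiquitin receptor, ran from -0.15 in eIF4G1 to 0.39 in eIF3 complexes. In eIF4G1 complexes all 3 lay between -0.15 and -0.04 on the log2 scale, with SEs of 0.31 to 0.35.

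In the lid 6 of 8 genes were lower in i14G1-12 in eIF1 complexes (median log2 fold change -0.14), 5 of 8 in eIF4G1 (median -0.24), 5 of 8 in eIF2a (median -0.25) and 6 of 8 in eIF3 complexes (median -0.24). Without DMSO replicate 1 the medians were 0.36 in eIF2a, 0.15 in eIF3 and -0.06 in eIF4G1 complexes. Those of all genes were then 0.58, 0.07 and -0.01. The eIF2a median was also 0.17, over 5 genes, with a minimum count of 30 and -0.0215 without i14G1-12 replicate 1. In eIF1 complexes it was -0.0399 without i14G1-12 replicate b and -0.26 without i14G1-12 replicate c. None passed the test. PSMD14 (ENSG00000115233, chr2:161308425-161411717), the deubiquitinase of the lid, had a negative fitted value in all 4, with a sign that changed in 2 of 11 alternative settings in eIF2a and 1 of 11 in eIF3 complexes. In eIF4G1 complexes it had 253, 177 and 227 CPM in DMSO and 60.6, 152 and 154 in i14G1-12, the only one of the 31 genes whose groups did not overlap there. Replicate 1 of i14G1-12 was far below the other 2, and rested on 16 counts. The log2 fold change was -0.81 (SE 0.35, edgeR adjusted p = 0.488, n = 3 each), and -0.53 without that library. In eIF1 complexes PSMD14 had 208, 289.7 and 202 CPM in DMSO and 163, 177 and 184 in i14G1-12, also without overlap. It was at -0.42 on the log2 scale (SE 0.23, edgeR adjusted p = 0.464, n = 3 each).

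PSMD7 (ENSG00000103035, chr16:74296814-74306288), the partner of PSMD14 in the lid, was the lowest in eIF1 complexes, at 124, 90.7 and 122 CPM in DMSO and 46.6, 88.7 and 57.3 CPM in i14G1-12. The groups came close but did not overlap (log2 fold change -0.78, SE 0.28, edgeR adjusted p = 0.212, n = 3 each). In eIF4G1 complexes PSMD7 had 184, 141 and 122 CPM and 144, 98.4 and 139 CPM, which overlap, with a log2 fold change of -0.24.

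PSMD11 (ENSG00000108671, chr17:32444510-32483319) was 1 of 3 genes with ATGGCGG in a window, and the only one with AAN before it and C after it. It had a negative fitted value in all 4 immunoprecipitations and was among the 3 lowest in eIF4G1 and eIF2a complexes. In eIF1 complexes it had 62.4, 27.3 and 52.9 CPM in DMSO and 53.6, 33.9 and 53.4 in i14G1-12, with a log2 fold change of -0.03 whose sign changed in 3 of 12 alternative settings. In eIF4G1 complexes the libraries had 84.6, 67.6 and 33.6 CPM in DMSO and 53.1, 36.6 and 34.8 in i14G1-12, with overlap (log2 fold change -0.67, SE 0.47, edgeR adjusted p = 0.767, n = 3 each). In eIF2a complexes the value was -0.67 (SE 0.51), from 147 and 86.7 CPM in DMSO and 50.4 and 116 in i14G1-12. It is the gene with the lowest mean level per length, with 5 to 83 counts in 19 libraries and 1 in DMSO replicate 2 of eIF2a. Without DMSO replicate 2 its value in eIF2a complexes was -0.74. Over 10 alternative settings that value ran from -1.48 to 0.0739, with the sign changed in 1.

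Other lid genes were extreme in 1 immunoprecipitation each or in opposite directions. PSMD6, at 151, 121 and 159.6 CPM in eIF4G1 DMSO libraries and 284, 146 and 136 in i14G1-12, was second highest there (0.36, with overlap) and among the 3 lowest in eIF2a complexes (-0.35, from 237 and 86.7 CPM in DMSO and 126 and 211 in i14G1-12). The plain means there, 162 CPM in DMSO and 168 in i14G1-12, had the other sign. The lower DMSO value rests on 1 count, and without that library the fitted value was -0.45. Over 11 alternative settings PSMD6 ran from -0.74 to 1.04 in eIF2a complexes, with the sign changed in 2. In eIF4G1 complexes it ran from -0.0345 to 0.57 over 13 settings, with the sign changed in 1. Without i14G1-12 replicate 1 all 8 of 8 lid genes were lower there. PSMD8 was high in eIF2a complexes, from 204 and 86.7 CPM in DMSO to 244 and 353 in i14G1-12 (log2 fold change 0.66, SE 0.42, edgeR adjusted p = 1.00, n = 2 each). The lower DMSO value of PSMD8 also rests on 1 count, so this separation is not resolved. Its fitted value ran from 0.40 to 1.85 over 11 alternative settings. In eIF3 complexes PSMD8 was low, from 245 and 123 CPM to 165 and 60.3 CPM with overlap (-0.78 on the log2 scale). PSMD12, at 88.0 and 105 CPM in eIF3 DMSO libraries and 160.2 and 158 in i14G1-12, was second highest there (0.75). PSMD13 had 227 and 0 CPM in eIF2a DMSO libraries and 159.7 and 132 in i14G1-12, a fitted -0.51 on the log2 scale. The plain means, 114 and 146 CPM, ran the other way because the second DMSO count was 0, and the fitted value without that library was -0.68. The last, PSMD3, lay between -0.25 and 0.22.

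The 8 genes with an ATG within 30 bases of a start site were set beside the 18 others that had a window. This split was made after the fold changes were seen and has no test. The medians were 0.23 and 0.00 in eIF1 complexes, -0.14 and -0.21 in eIF4G1 complexes, 0.14 and -0.04 for eIF2a, and -0.42 against -0.18 for eIF3. Ranges of the sets overlapped in each, for instance from -0.19 to 0.83 and from -0.78 to 0.64 in eIF1 complexes. Of the genes with ATGGCGG in the window, PSMA2 and PSMC6 were positive in eIF1 complexes and PSMD11 was near 0. All 3 were negative in eIF4G1 complexes, where 20 of the 31 genes were, and the sign of PSMC6 there changed in 1 of 13 alternative settings. In the order PSMA2, PSMC6 and PSMD11 the values were 0.22, 0.22 and -0.67 in eIF2a complexes. In eIF3 complexes they were -0.12, 1.17 and -0.55, with no shared direction.

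Whether the effect of i14G1-12 differed between eIF1 and eIF4G1 complexes was tested as an interaction in 1 fit to all 20 libraries. Of the 31 genes 0 were called (0.0318% of 9426 genes were), 1 had an unadjusted p under 0.05 (3.13% of all genes), and the median difference was 0.28 against -0.02 over all genes. With 1 library left out that median ran from 0.08 (without eIF4G1 DMSO replicate 1) to 0.49 (without eIF4G1 i14G1-12 replicate 2). PSMC6 had the smallest p, with a difference of 1.03 on the log2 scale (SE 0.48, unadjusted p = 0.0353, edgeR adjusted p = 1.00), followed by PSMD13 at 0.87 (SE 0.52, unadjusted p = 0.103). For any difference among the 4 immunoprecipitations 0 were called (0.0212% of 9426 genes), 0 had an unadjusted p under 0.05 (1.8%), and PSMC6 (unadjusted p = 0.0955) and PSMA7 (unadjusted p = 0.116) came first. So no gene of the set was shown to respond differently in one immunoprecipitation than in another. In eIF1 complexes PSMD13, a lid subunit, had 98.2, 70.2 and 142 CPM in DMSO and 130.4, 124 and 156 in i14G1-12, and in eIF4G1 complexes 162, 101 and 209.9 CPM and 64.4, 177 and 104 CPM, with overlap in both. A p that misses the threshold does not show that the effects were alike, since the 95% interval of the PSMD13 difference ran from -0.16 to 1.89.

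The DMSO libraries alone show how the set was distributed over the immunoprecipitations in solvent-treated cells. Each was set against the mean of the other 3, in the fit to all 20 libraries, so the 4 comparisons share samples. Factor, antibody and library preparation cannot be told apart. In eIF1 complexes 24 of 31 genes were higher, with a median log2 difference of 0.31 (0.04 over all genes tested), and 1 rose past the threshold (4.08% of 9426 genes were called, 3.76% as higher). With scaling by total counts the direction was the other one, 21 of the 31 being lower at a median of -0.11, while the median of all genes moved to -0.33.

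PSMC2 was the gene called. On the scale of all 20 libraries it had 292, 147 and 224 CPM in eIF1 DMSO libraries, 178, 59.8 and 67.7 in eIF4G1, 114 and 0 in eIF2a, while eIF3 libraries had 124 and 83.5. The second eIF1 library lay below the highest eIF4G1 library, so the groups overlapped. The log2 difference was 1.07 (SE 0.32, edgeR adjusted p = 0.0428, n = 3 against 7 libraries). The call was lost, with the smallest adjusted p of the set in parentheses, under DESeq2 size factors (0.0738), with total counts (0.246), with a minimum of 30 counts (0.0517) and without the 3 libraries eIF2a DMSO 2 and eIF3 number 2 of both treatments (0.0582). It was also lost when any of 11 single libraries was left out: 2 eIF1 DMSO libraries (a and c), i14G1-12 b and c of eIF1, DMSO 2 and 3 of eIF4G1, 3 libraries of eIF2a (both of i14G1-12 and DMSO 2) and both DMSO libraries of eIF3. PSMD12, next in order, had 189, 214 and 234 CPM in eIF1 DMSO libraries and 73.3 to 143 in the other 7, without overlap (log2 difference 0.96, SE 0.30, edgeR adjusted p = 0.0508), and passed when any of 5 i14G1-12 libraries was left out, all 3 of eIF4G1 and both of eIF3.

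In eIF3 complexes the direction was the opposite one. There 30 of 31 genes were lower than the mean of the other immunoprecipitations in DMSO, with a median log2 difference of -0.41 (0.04 over all genes tested), and PSMD8, at 0.24, was the exception. None passed the threshold (0.0955% of 9426 genes were called), and 5 had an unadjusted p under 0.05 (5.79%). PSMB7 had the smallest p, with 115 and 97.4 CPM in eIF3 libraries and 52.9 to 305 in the other 8, which overlap (log2 difference -1.02, SE 0.40, edgeR adjusted p = 0.655). PSMD12 followed with 73.3 and 83.5 CPM in eIF3 libraries, below the other 8 at 106 to 234 (log2 difference -1.01, SE 0.42, edgeR adjusted p = 0.730). The count of lower genes depended on single libraries. It was 18 without eIF2a DMSO 1, at a median of -0.06, where the median of all genes moved to 1.66. It was 25 without eIF3 DMSO 2 (median -0.28, against 0.03 over all genes). Leaving out the 3 libraries set apart also gave 25 (median -0.33, against 0.02). Without eIF3 DMSO 1 all 31 were lower, at a median of -0.95 (-0.27 over all genes), and PSMA6 was called, on an eIF3 count of 0.

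In eIF4G1 complexes 20 of 31 genes were higher in DMSO, including 7 of 7 alpha ring genes (median 0.28), with a median over the set of 0.13 (0.07 over all genes). That excess rested on 1 library, since without eIF4G1 DMSO 1 the median was 0.00579 and 15 of 31 were lower, and without the 3 libraries set apart the medians were 0.05 for the set and 0.06 for all genes. None was called (0.117% of 9426 genes) or had an unadjusted p under 0.05 (5.18%), and the smallest p was that of PSMD2, with 196, 171 and 175 CPM in eIF4G1 libraries above the other 7 at 52.9 to 165 (log2 difference 0.43, SE 0.30, edgeR adjusted p = 0.945). PSMA5 came second, with 332, 197 and 367 CPM in eIF4G1 libraries and 106 to 292 in the other 7, which overlap, at a log2 difference of 0.35. In eIF2a complexes 18 of 31 were higher, with a median of 0.03 (-0.13 over all genes). Without eIF2a DMSO 2 only 5 were lower (median 0.21), and without eIF2a DMSO 1, which leaves the smallest library alone, 28 were (median -1.22, against -5.53 over all genes). In the fit to all 20 libraries none was called (0.053% of 9426 genes) or had an unadjusted p under 0.05 (3.7%). PSMD11 had the smallest p there, with 114 and 52.9 CPM in eIF2a libraries and 31.9 to 80.0 in the other 8, which overlap (log2 difference 0.80, SE 0.49, edgeR adjusted p = 0.999). PSMB6 followed, with 268 and 159 CPM in eIF2a libraries and 111 to 213 in the other 8, which overlap, at a log2 difference of 0.57.

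**Figure D5:**
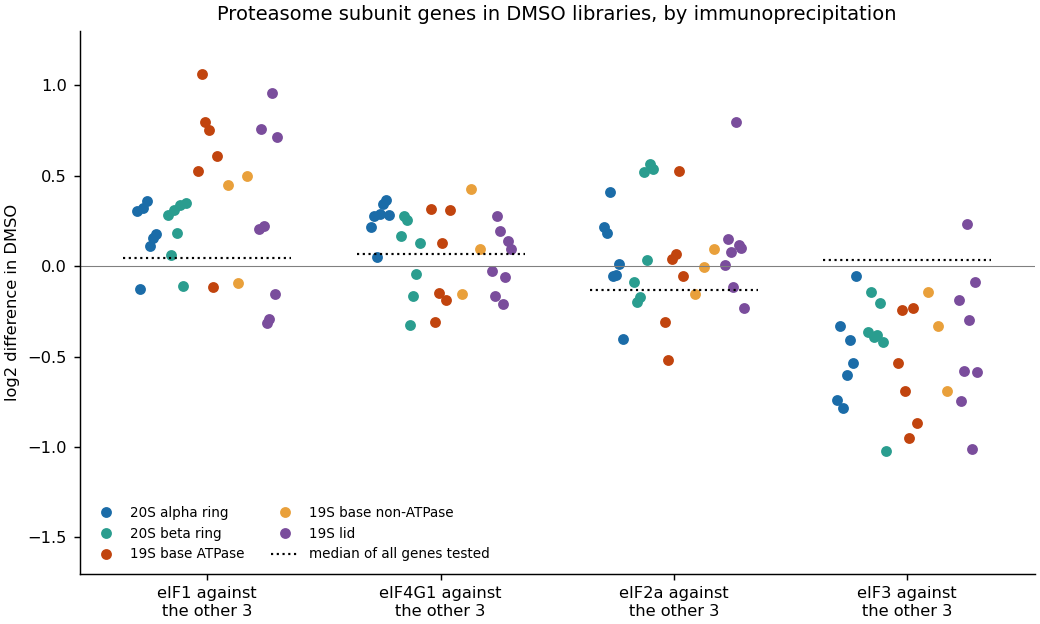
Log2 difference of each proteasome subunit gene between the DMSO libraries of 1 immunoprecipitation and the mean of the other 3, coloured by subunit class; dotted lines are the medians of all genes tested. In eIF3 complexes 30 of 31 points lie below 0 with a median of -0.41, and the highest point in eIF1 complexes is PSMC2 at 1.07; with scaling by total counts 26 of 31 are below 0 in eIF3 and 21 of 31 are below 0 in eIF1 complexes.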

How the data were processed

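Counts were used as the authors deposited them, 1 table per immunoprecipitation with raw reads per Ensembl gene; cutadapt, Trimmomatic, Bowtie, HISAT2, featureCounts and hg38 are named in the submitters' processing notes, with no versions, and per the file headers each gene was counted on 1 sequence whose length is listed. The genes and lists were chosen with earlier results of these data known.

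Each table was fitted in edgeR 4.0.16 (R 4.3.3; filterByExpr with a minimum count of 10, TMM scaling, quasi-likelihood test) with 4 to 6 libraries of 1 immunoprecipitation. Interactions and DMSO contrasts used 1 fit to all 20 libraries. P-values were adjusted by Benjamini-Hochberg over all genes tested, with 0.05 as the threshold, and 95% intervals were taken from the SE on a normal scale. The scripts were tested on simulated counts. Libraries of eIF1 carry no replicate number and are called a, b and c. CPM values are TMM-scaled within an immunoprecipitation unless stated otherwise. No molecular identifiers are named in the sources used here, so Wilson intervals and floors of 3 counts cover counting error only.

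Values by library were given for genes past the threshold, the 3 highest and 3 lowest fold changes of each immunoprecipitation, the 2 smallest p-values of each comparison, the 2 highest and 2 lowest levels and the catalytic subunits; other examples were chosen after their values were seen. Alternatives were DESeq2 1.42.0 (size factors or test), total counts, no filter, a minimum of 30, all libraries in 1 fit, a replicate block and each library left out. Lists of other pathway genes and of cell type markers were not tested, since 0 of 19029 IDs could be matched to symbols. Replicates with the same number did not deviate together in eIF4G1 complexes (correlations 0.01, -0.10 and -0.15) or in eIF2a complexes (-0.02). They did in eIF3 complexes (0.56). With 2 libraries per group, libraries of different number necessarily give the same value with the other sign (-0.56 in eIF3). The eIF2a and eIF3 values are thus 1 number each and cannot show whether libraries were paired. The main fits treated none as pairs, and the replicate block was an alternative.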

Additional observations from a re-analysis of the deposited data

How the results depend on the processing

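The count of genes of the set called with i14G1-12 was 0 in all 4 immunoprecipitations under every alternative run, while the number of all genes called in eIF1 complexes ran from 2 to 174 (38 in the fit reported, 129 with no filter, 70 with a minimum count of 30 and 174 with DESeq2) and in eIF4G1 complexes from 4 to 91 (25 in the fit reported, 68 with no filter, 91 with DESeq2). With total counts the median log2 fold change of the set was -0.10 in eIF1 and -0.30 in eIF4G1 complexes, and the medians of all genes moved to -0.13 and -0.16. When 1 library was left out, the median ran from -0.10 to 0.17 in eIF1 complexes. In eIF4G1 complexes it ran from -0.28 to -0.05 (highest without DMSO replicate 1), and in eIF3 complexes from -0.74 to 0.33. In eIF2a complexes it ran from 0.0590 to 1.04. That highest value came without DMSO replicate 1, when DMSO rests on 10033 counts and the median of all genes was 0.58. The log2 ratio of summed shares became 0.0747 in eIF1 and 0.30 in eIF2a complexes with TMM-scaled totals, and -0.0198 in eIF1 complexes without the 10 most abundant genes. In DMSO, 0 genes were called for eIF1 with DESeq2 size factors, total counts, a minimum count of 30 or without the 3 libraries set apart, and 0 to 2 when 1 library was left out. For eIF3 in DMSO it was 0 to 1. The causes were not tested. With the replicate block 0 genes of the set were called in eIF4G1, eIF2a and eIF3 complexes, with smallest adjusted p-values of 0.532, 1.00 and 0.0885 (edgeR). All genes called rose from 1 to 38 in eIF3 complexes and went from 25 to 31 in eIF4G1. Same-numbered eIF3 libraries correlated at 0.56, and a link to that rise was not tested. No paired analysis was possible for eIF1 because its columns carry no numbers of the labels. Of the 31 genes, 22, 18, 18 and 13 kept the sign of their fold change under all alternatives in eIF1, eIF4G1, eIF2a and eIF3 complexes. In the smallest library, eIF2a DMSO 2, a count of 0 allowed up to 299 CPM, so differences below that level were not detectable there for the genes at 0.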
